A study of Homo sapiens with 12 samples.

Results

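The 31 genes described here had the largest increase in relative mRNA level over 4 h of transcription block in shA673-1c cells, a line derived from the Ewing sarcoma line A673 that carries an inducible hairpin against the fusion transcript EWS::FLI1. They were chosen among the 26334 genes of the count table by their CPM, the usual scale on which a gene's reads are divided by all counted reads of its library, so that the genes of every library sum to the same value. A gene was taken when its mean over the 12 libraries was at least 5 CPM and the log2 ratio of its mean at 4 h to its mean at 0 h was at least 0.8. MALAT1, NEAT1, MEG3, KCNQ1OT1 and genes whose symbols start with ANKRD36, GOLGA8, SLC, LINC or ZNF were left out by name, which removed 9 of the 40 genes past both thresholds. To lower EWS::FLI1, all cells were grown with doxycycline (4 days, 1 µg per ml), and they were then exposed to 5 µM actinomycin D for 0, 1, 2 or 4 h, with 3 biological replicates per time. Cells without doxycycline were not analysed here, so every value belongs to doxycycline-treated cells of 1 line, and the 0 h libraries are the start of the time course. Whether the hairpin lowered the fusion cannot be read from these libraries.

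Actinomycin D binds DNA and stops RNA polymerases, so that an mRNA is no longer replenished and its amount follows its decay. In a sequencing library each gene is measured as a share of all counted reads. When many mRNAs are lost, an mRNA that decays slowly takes a larger share, and its CPM goes up without any new transcript. Another feature of such libraries is that poly(A) selection also captures polyadenylated RNA held in the nucleus, including transcripts that still contain an intron. The counts do not tell spliced from unspliced RNA, or nuclear from cytoplasmic RNA.

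Total counts lay between 9381855 and 10929000 per library. The labelled cell type was checked against markers of Ewing sarcoma and of A673 cells. EWSR1 averaged 257 CPM over the 12 libraries, FLI1 13.6 CPM, CAV1 1804 CPM and STEAP1 17.0 CPM, while NKX2-2 and NR0B1 stood at 1.18 and 3.36 CPM and CD99 had no count in any library. Why CD99 had no count was not tested, and the count alone does not show that its mRNA was absent. Among 13 markers of blood, liver, epithelial, endothelial and islet cells, CD3E and INS had no count, the highest mean was 17.6 CPM for HBB, and their summed level was 21.9 to 31.7 CPM at 0 h and 11.5 to 18.4 CPM at 4 h. Most of that sum was HBB (23.4 CPM at 0 h and 9.83 CPM at 4 h), and the other 12 markers summed to 2.73 to 4.68 CPM at 0 h and 3.82 to 4.70 CPM at 4 h. Their part in the values of the 31 genes was not tested. Immediate early genes, which have short-lived mRNAs, gave a check of the transcription block. Between 1 h and 2 h, 12 of 19 tested fell, against 5.72% of all genes tested (edgeR quasi-likelihood test, Benjamini-Hochberg adjusted p under 0.05), with a log2 change of -2.03 for DUSP6 and -2.87 for NFKBIA. Among those not called were FOS (-0.05), FOSB (-0.18), JUND (-0.10) and ATF3 (-0.19). The list was chosen with earlier results of these data known.

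The 31 genes were of low abundance. Their mean level over the 12 libraries had a median of 11.5 CPM and ranged from 5.89 CPM for CFAP44 to 64.6 CPM for CPNE7, and 15 of 31 lay under 10 CPM. Among the 9788 genes that met the level threshold and were not left out by name, the median was 39.8 CPM and 11.4% lay under 10 CPM. At 0 h the lowest count behind any value of the 31 genes was 23 reads and the median 71 reads, and at 4 h these were 51 and 137 reads. In bulk RNA, fewer cells that express a gene and less of its RNA per cell cannot be told apart. Summed over the 31 genes, the level was 330, 348 and 361 CPM in replicates 1, 2 and 3 at 0 h. It was 473, 488 and 632 CPM at 1 h, 510, 425 and 478 CPM at 2 h, and 684, 635 and 734 CPM at 4 h. The 1 h library of replicate 3 thus stood above the other 1 h libraries, and it held the highest 1 h value for 25 of 31 genes.

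The ratio of 4 h to 0 h chose the genes and is given as a description, without a test. Its log2 median was 0.99 over the 31 genes, with a range from 0.81 to 1.59, against a median of -0.07 and 5th and 95th percentiles of -1.63 and 0.36 over the 9788 genes. Just inside the threshold lay TMEM175 at 0.81, STAG3L5P-PVRIG2P-PILRB at 0.81 and QRICH2 at 0.83, and just outside it GABBR1 at 0.80, CEACAM19 at 0.80 and LOC146880 at 0.79. In each of the 3 replicates the 4 h value of all 31 genes exceeded that of 0 h. In 29 of 31 the libraries of both times did not overlap, with 4 h higher, against 17.6% of the 9788 genes, and 0 of 31 had 4 h lower, against 35.6%. The libraries of CCDC150 and CFAP44 overlapped. The ratio depends on what a library is scaled to. Scaled by the trimmed mean of M values (TMM) the median was 1.13, and scaled to the summed cytosolic ribosomal protein mRNAs it was 0.76, with all 31 ratios above 0 in both.

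**Figure D1:**
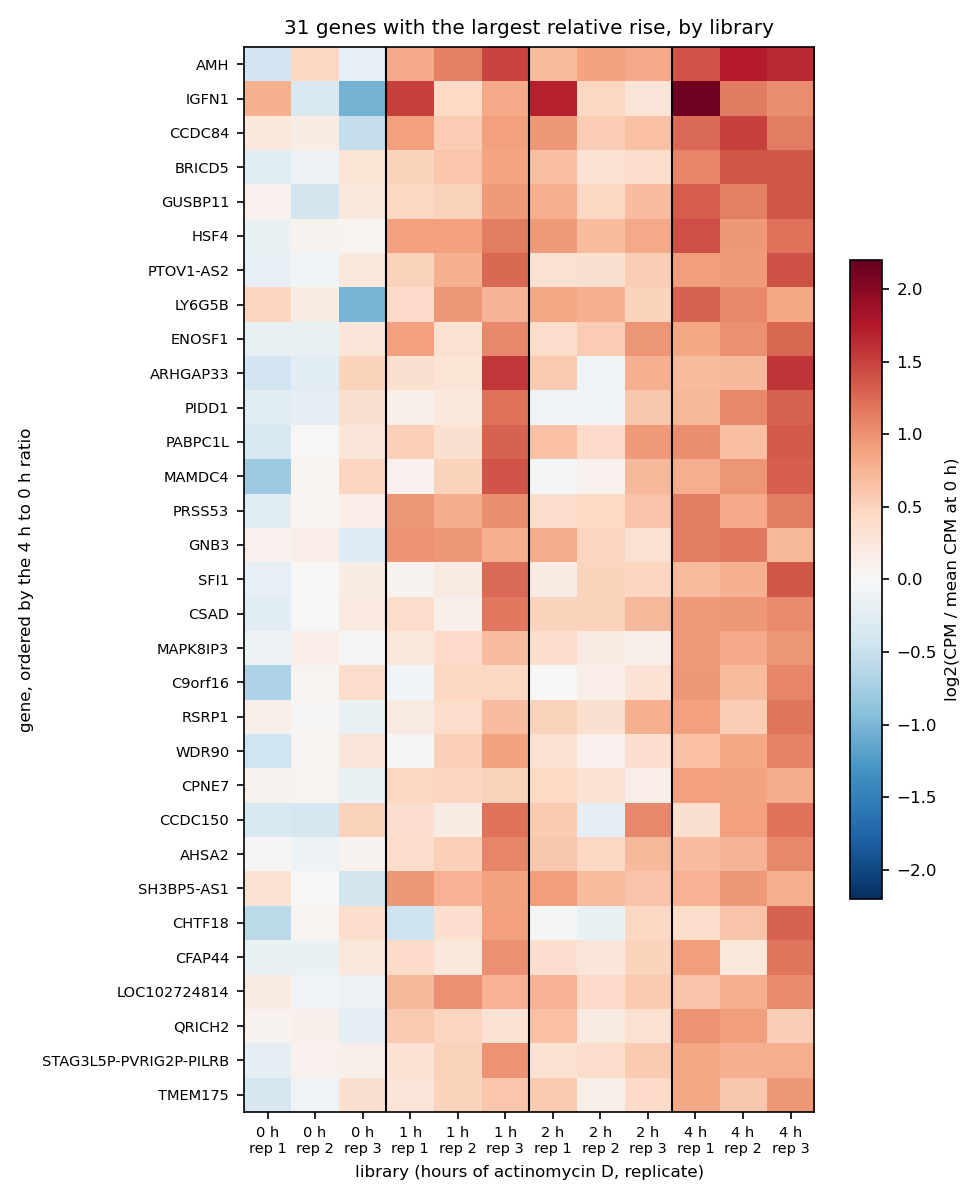
Each row is 1 of the 31 genes and each column 1 library, grouped by hours of actinomycin D; the colour gives log2 of the CPM over the gene's mean CPM at 0 h. By the median of the 31 genes, the 4 h column of replicate 3 is the reddest (1.13). The 1 h column of replicate 3 (0.935) stands out from the other 1 h columns. It is about as red as the 4 h columns of replicates 1 and 2 (0.914 and 0.906).

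The rule was also applied with 1 replicate left out, and the genes it then found were read in that replicate. This again used the ratio of 4 h to 0 h, so the values are descriptions, without a test. With replicate 1 left out at every time, the rule found 29 genes, of which 24 were among the 31. In replicate 1 all 29 were higher at 4 h than at 0 h, and 20 of 29 reached a log2 ratio of 0.8, against 0.746% of all genes of that level. With replicate 2 left out it found 39 genes, of which 39 were higher in replicate 2 and 19 reached 0.8, against 0.336% of all genes. With replicate 3 left out it found 30 genes, of which 30 were higher in replicate 3 and 21 reached 0.8, against 0.524% of all genes. The median log2 ratio in the replicate left out was 1.01, 0.79 and 0.98, and that of all genes was -0.09, -0.08 and -0.07. In the replicates that chose the genes the medians were 1.02, 0.99 and 1.02, and the gap to the replicate left out was widest for replicate 2.

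Only the 1 h and 2 h libraries were not compared by the rule, so 2 h against 1 h is the 1 contrast in which the 31 genes could be tested. In edgeR's quasi-likelihood fit over all 12 libraries, 0 of 31 genes were higher and 0 of 31 lower at 2 h than at 1 h at an adjusted p under 0.05. Of all 12775 genes tested, 1.46% were higher and 5.72% lower. At an unadjusted p under 0.05, 0 of the 31 were higher and 1 was lower, and DESeq2 called 0 in either direction, with 0 at an unadjusted p under 0.05. The median log2 change of the 31 genes was -0.12, beside 0.01 for all genes tested, and 26 of 31 estimates were below 0. The fit above did not use the replicate numbers, although these paired the libraries. With the replicate number as a block, 3 of 31 were lower and 0 higher, against 14.3% and 13% of all genes. No member passed in the direction of an increase between 1 h and 2 h, and the intervals of the single genes were wide, the narrowest being that of CPNE7 from -0.31 to 0.07 and the widest that of IGFN1 from -1.01 to 1.08.

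The 2 h to 1 h difference leaned on the 1 h library of replicate 3. From 1 h to 2 h, raw CPM went down for 29 of 31 genes in replicate 3 and 25 of 31 in replicate 2, but for 10 of 31 in replicate 1. Of the 9788 genes, 57.8%, 56.9% and 56.6% were lower in those replicates. Without the 1 h library of replicate 3 the median log2 change of the 31 genes was 0.03, with 13 of 31 below 0 and 0 called in either direction. Without the other libraries of 1 h and 2 h in turn it stayed between -0.21 and -0.09.

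**Figure D2:**
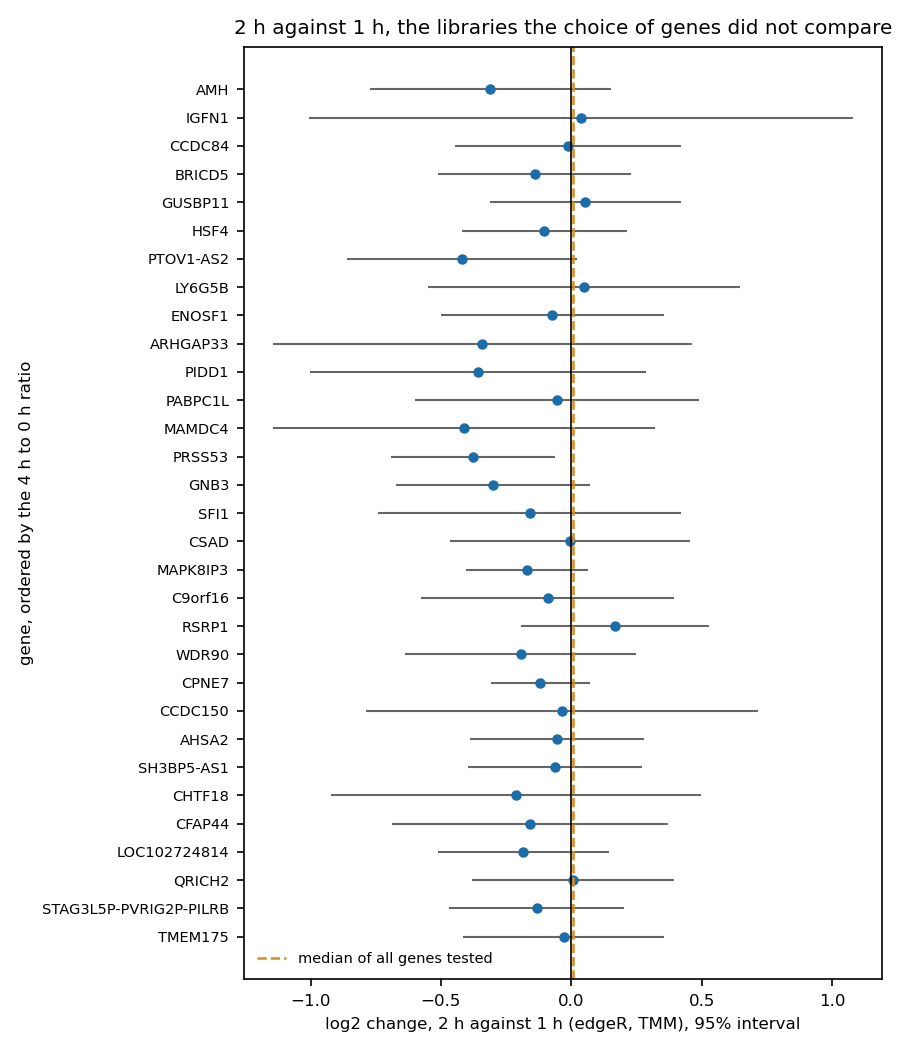
Points give the edgeR log2 change from 1 h to 2 h for each of the 31 genes, bars its 95% interval, and the dashed line the median of all 12775 genes tested. The interval of PRSS53 is the only one that leaves out 0, and no gene passed after adjustment.

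The increase from 0 to 4 h was made in the intervals on both sides of that contrast. Each of them shares the 0 h or the 4 h libraries with the rule, so these values are descriptions. The median log2 ratio of the 31 genes was 0.67 from 0 to 1 h and 0.53 from 2 to 4 h, and in both intervals 31 of 31 were above 0. Over the 9788 genes the medians were -0.01 and -0.08, with 44.7% and 37.8% above 0. The libraries did not overlap, with all 3 higher, for 19 of 31 genes from 0 to 1 h (4.51% of the 9788 genes) and for 18 of 31 from 2 to 4 h (12.7%). With all 3 lower, the counts were 0 of 31 in both intervals, against 8.5% and 30.1%. From 1 to 2 h all 3 libraries were lower without overlap for PRSS53 and CPNE7 (2 of 31, against 17.7% of the 9788 genes) and higher for 0 (6.61%).

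**Figure D3:**
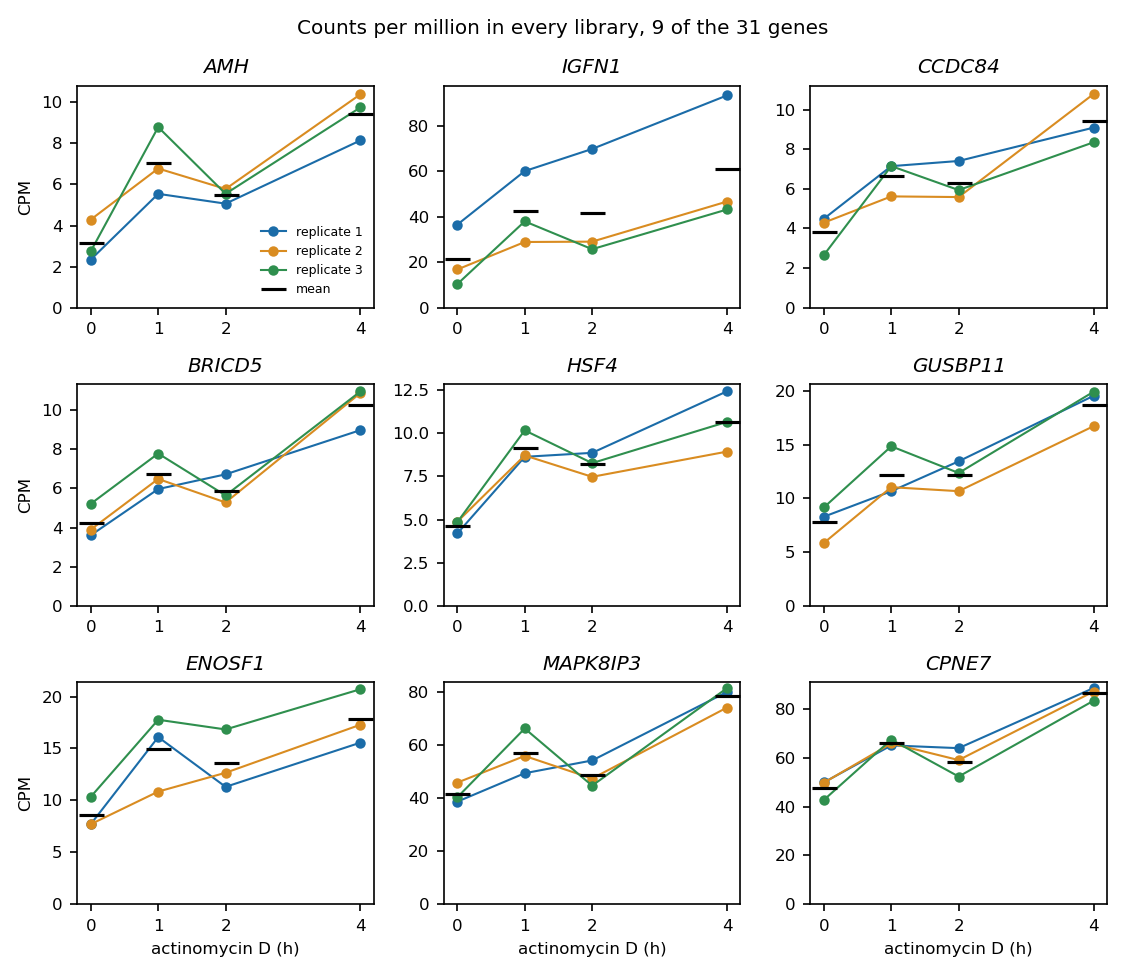
CPM of 9 of the 31 genes against hours of actinomycin D; lines join the libraries of a replicate number and black bars give the mean of 3. The first hour and the last interval go up in most panels. The 1 h point of replicate 3 lies highest for AMH, BRICD5, HSF4, GUSBP11, MAPK8IP3, ENOSF1 and CPNE7. In CCDC84 it lies level with that of replicate 1.

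Secreted, membrane and receptor-linked products made up 8 of the 31 genes, with log2 ratios from 0.81 to 1.59. AMH encodes anti-Müllerian hormone, a ligand of the TGF-beta family that makes the Müllerian ducts regress in male embryos. AMH stood at 2.34, 4.29 and 2.74 CPM in replicates 1, 2 and 3 at 0 h, 5.54, 6.78 and 8.79 CPM at 1 h, 5.07, 5.78 and 5.55 CPM at 2 h, and 8.15, 10.4 and 9.75 CPM at 4 h. Every library after 0 h lay above every 0 h library, and the 2 h libraries lay within or below the range at 1 h. AMH went from 3.12 ± 1.03 to 9.43 ± 1.16 CPM (SD, n = 3), a 3.02-fold ratio, the highest of the 31. From 1 h to 2 h its log2 change was -0.31 (SE 0.21, edgeR adjusted p = 0.467). Of 13 tested genes listed as TGF-beta family ligands, AMH and the protease gene BMP1 included, 0 were called between 1 h and 2 h. Of all genes tested, 1.46% were called higher and 5.72% lower, so 0 among 13 genes is near those shares. The list median was 0.04, and the lowest unadjusted p-values were those of GDF11 (log2 change 0.14, edgeR adjusted p = 0.405) and BMP6 (0.59, adjusted p = 0.431).

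BRICD5, which encodes a BRICHOS domain protein, stood at 3.61, 3.90 and 5.22 CPM at 0 h and 8.98, 10.88 and 10.96 CPM at 4 h, a 2.42-fold ratio. Its 1 h values of 5.97, 6.49 and 7.78 CPM lay between those ranges. PRSS53, a serine protease gene, had 3.41, 4.19 and 4.48 CPM at 0 h, 7.89, 7.07 and 8.15 CPM at 1 h, 5.36, 5.48 and 6.23 CPM at 2 h, and 8.77, 7.19 and 8.75 CPM at 4 h. Its 2 h libraries lay below all libraries of 1 h and of 4 h, and above all of 0 h. The log2 change of PRSS53 from 1 h to 2 h was -0.38 (SE 0.14, edgeR adjusted p = 0.146), and it passed only with scaling to ribosomal protein mRNAs (-0.52, adjusted p = 0.0467).

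GNB3, the beta 3 subunit of heterotrimeric G proteins, went from 7.70, 7.99 and 5.95 CPM at 0 h to 14.28, 14.04 and 12.46 CPM at 1 h. It was at 12.8, 9.97 and 9.05 CPM at 2 h and 15.67, 16.22 and 11.96 CPM at 4 h, so the 2 h and 4 h libraries overlapped. MAMDC4, a MAM domain gene, was at 3.61, 6.53 and 8.69 CPM at 0 h and 10.9, 12.3 and 15.6 CPM at 4 h, with 16.3 CPM in the 1 h library of replicate 3. Between 1 h and 2 h GNB3 and MAMDC4 had log2 changes of -0.30 and -0.41 (edgeR adjusted p = 0.363 and 0.563) and passed only with the replicate block (adjusted p = 0.0451 and 0.0416). Without the 1 h library of replicate 3 the MAMDC4 change turned to 0.02. CPNE7, a copine that binds phospholipids in the presence of calcium, was the most abundant of the 31 genes and varied little between replicates. CPNE7 had 49.9, 49.8 and 42.7 CPM at 0 h, 65.1, 65.9 and 67.5 CPM at 1 h, 64.0, 59.1 and 52.3 CPM at 2 h, and 88.7, 87.2 and 83.4 CPM at 4 h. Its 4 h libraries lay above all others, and its 4 h to 0 h ratio was 1.82-fold. LY6G5B, of the Ly6 family, and TMEM175, an ion channel of lysosomes, had ratios of 2.12-fold and 1.75-fold. LY6G5B was the only 1 of the 31 that was not higher at 1 h than at 0 h in all 3 replicates.

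Genes of the cytoskeleton, centriole, cilium and of scaffolds made up another 8, with log2 ratios from 0.83 to 1.53. IGFN1, an immunoglobulin and fibronectin domain gene known from striated muscle, differed most between replicates. It stood at 36.5, 16.8 and 10.3 CPM at 0 h, 60.01, 28.85 and 37.92 CPM at 1 h, 69.7, 29 and 25.7 CPM at 2 h, and 93.3, 46.6 and 43.1 CPM at 4 h. Replicate 1 was the highest at each time, and within each replicate 4 h was the highest value. The 1 h and 0 h libraries of IGFN1 overlapped, since replicate 2 at 1 h lay below replicate 1 at 0 h.

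MAPK8IP3 encodes JIP3, a scaffold of JNK signalling and an adaptor of axonal transport. It had 38.6, 45.8 and 40.3 CPM at 0 h, 49.4, 55.9 and 66.2 CPM at 1 h, 54.2, 47.3 and 44.7 CPM at 2 h, and 80.0, 74.1 and 81.4 CPM at 4 h. The 4 h libraries stood clear of the rest, and those of 2 h reached down into the 0 h range. WDR90, a protein of the centriole wall, went from 24.0, 34.1 and 39.9 CPM at 0 h to 51.1, 59.2 and 69.7 CPM at 4 h, with replicate 3 highest and replicate 1 lowest at both times. SFI1, which binds centrins at the centrosome, was at 8.29, 9.26 and 10.5 CPM at 0 h and 15.2, 16.1 and 24.2 CPM at 4 h. In SFI1 and in ARHGAP33, a GTPase activating protein gene, the 1 h library of replicate 3 (22.1 and 13.8 CPM) lay above the other 1 h libraries (9.91 and 10.7 CPM, and 5.97 and 5.81 CPM). CFAP44 and QRICH2, which belong to cilia and sperm flagella, and the coiled-coil gene CCDC150 stayed under 13 CPM in every library, with ratios of 1.77-fold to 1.82-fold.

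Regulators of transcription, RNA, DNA replication and cell death were 6 of the 31. HSF4, a heat shock transcription factor with a role in the lens, had 4.19, 4.87 and 4.85 CPM at 0 h, 8.63, 8.71 and 10.2 CPM at 1 h, 8.86, 7.47 and 8.27 CPM at 2 h, and 12.4, 8.94 and 10.7 CPM at 4 h. Most of its increase was present after the first hour, with a log2 ratio of 0.98 from 0 to 1 h and 0.38 from 2 to 4 h. Between 1 h and 2 h the log2 change of HSF4 was -0.10 (SE 0.15, edgeR adjusted p = 0.781), and the other tested heat shock factors, HSF1 (-0.05, adjusted p = 0.804) and HSF2 (-0.21, adjusted p = 0.467), did not pass either. With the replicate block HSF2 was lower (adjusted p = 0.0398). CCDC84, also called CENATAC, encodes a component of the minor spliceosome, which removes a rare class of introns. It stood at 4.49, 4.29 and 2.65 CPM at 0 h, 7.14, 5.61 and 7.14 CPM at 1 h, 7.40, 5.58 and 5.93 CPM at 2 h, and 9.09, 10.8 and 8.34 CPM at 4 h. Its 1 h and 2 h libraries covered nearly the same range, above all of 0 h and below all of 4 h. Of 11 tested genes of the minor spliceosome, PDCD7 (-0.53, adjusted p = 0.0199), RBM48 (-0.73, adjusted p = 0.0301) and ARMC7 (-0.53, adjusted p = 0.0421) fell between 1 h and 2 h, against 5.72% of all genes tested, and 0 were called higher, against 1.46%, with a list median of -0.18. With the replicate block 1 of the 11 was called higher, ZCRB1 (log2 change 0.23, edgeR adjusted p = 0.0215), against 13% of all genes. The number called lower was again 3 of 11, against 14.3% of all genes with the block.

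PABPC1L, a relative of the poly(A) binding protein PABPC1 that is known from oocytes, went from 4.29, 5.36 and 6.496 CPM at 0 h to 10.97, 8.55 and 13.77 CPM at 4 h. RSRP1, a gene for an arginine and serine rich protein, was at 16.4, 15.4 and 13.5 CPM at 0 h, 17.4, 20.0 and 24.2 CPM at 1 h, 21.4, 19.1 and 26.0 CPM at 2 h, and 28.1, 21.9 and 34.0 CPM at 4 h. RSRP1 was the only 1 of the 31 genes with a higher mean CPM at 2 h than at 1 h, and this difference did not pass (log2 change 0.17, SE 0.17, edgeR adjusted p = 0.655). CHTF18, a subunit of an alternative loader of the replication clamp, had 18.3, 28.9 and 36.1 CPM at 0 h and 36.8, 43.1 and 68.6 CPM at 4 h, so that replicate 3 at 0 h nearly reached replicate 1 at 4 h. PIDD1, a scaffold for the activation of caspase-2, went from 3.71, 3.80 and 5.58 CPM to 7.21, 9.13 and 10.8 CPM.

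Enzyme and other coding genes were CSAD, which acts in taurine synthesis, ENOSF1, of the enolase superfamily, and C9orf16. ENOSF1 had 7.70, 7.70 and 10.3 CPM at 0 h, 16.1, 10.8 and 17.8 CPM at 1 h, 11.3, 12.7 and 16.8 CPM at 2 h, and 15.6, 17.3 and 20.7 CPM at 4 h. All its libraries after 0 h lay above those of 0 h, while those of 1, 2 and 4 h overlapped. CSAD went from 7.99 ± 1.26 to 15.7 ± 0.667 CPM and C9orf16 from 11.7 ± 4.10 to 21.9 ± 2.83 CPM (SD, n = 3).

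The remaining 6 genes were noncoding, antisense, readthrough or pseudogene transcripts. GUSBP11, a transcribed pseudogene related to the beta-glucuronidase gene GUSB, stood at 8.29, 5.85 and 9.15 CPM at 0 h, 10.66, 11.04 and 14.84 CPM at 1 h, 13.4, 10.7 and 12.4 CPM at 2 h, and 19.5, 16.7 and 19.9 CPM at 4 h. The antisense RNA PTOV1-AS2 had 3.51, 3.70 and 4.67 CPM at 0 h, 5.65, 6.78 and 9.52 CPM at 1 h, 4.97, 5.08 and 5.74 CPM at 2 h, and 7.52, 7.58 and 10.5 CPM at 4 h. The 2 h value of PTOV1-AS2 lay below that of 1 h in 3 of 3 replicates, with a log2 change of -0.42 (SE 0.20, edgeR adjusted p = 0.266) that passed only with the replicate block (adjusted p = 0.0366). SH3BP5-AS1 reached its level early, with a log2 ratio of 0.87 from 0 to 1 h and 0.08 from 2 to 4 h. AHSA2, related to the HSP90 cochaperone gene AHSA1 and annotated as a pseudogene, went from 14.7, 13.4 and 15.1 to 23.1, 24.3 and 30.1 CPM, with 30.3 CPM in the 1 h library of replicate 3. LOC102724814 and STAG3L5P-PVRIG2P-PILRB had ratios of 1.78-fold and 1.76-fold. How reads of near-identical copies were assigned was not given in the sources used here, so the levels of GUSBP11, AHSA2, STAG3L5P-PVRIG2P-PILRB and PABPC1L may include reads of related genes.

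The rule used no property of the gene models, and these were read from GENCODE release 29 on GRCh38, in which all 31 genes and 9733 of the 9788 were matched. The files were made on hg19, and only gene structure and neighbourhood were taken from GRCh38. By their medians the 31 genes were compact and rich in G and C. Gene span was 17650 bases at the median against 35995, but ranged from 2320 to 154664 bases. Spliced length differed less (3243 against 3599 bases). The spliced transcript, taken as the longest coding one where there was one, had a median GC content of 58.6% against 48.0% for the 9733 genes, and 14 of 31 lay above 60% (45.2%, against 13.9%). AMH was the richest at 73.1% and CFAP44 the poorest at 40.6%. The median intron of a gene was 615 bases long at the median of the 31 genes against 1820 bases, and under 300 bases in 11 of 31 (35.5%, against 9.58%), for example 103 bases in ARHGAP33, 104 bases in PIDD1 and 131 bases in AMH. Exons numbered 13 at the median against 10. A transcript annotated as keeping an intron was listed for 21 of 31 (67.7%, against 60.7%) and 3 or more such transcripts for 15 of 31 (48.4%, against 30.4%), with 13 for WDR90 and 11 each for MAPK8IP3 and SFI1. Chromosome 16 held 7 of 31 (22.6%, against 4.51%), namely BRICD5, HSF4, PRSS53, MAPK8IP3, WDR90, CPNE7 and CHTF18. These shares describe the 31 genes, and no test of enrichment was made. The 9733 genes were not matched to the 31 for level.

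The levels of the other genes also moved with time, and this differed by base composition. Among the 1336 other genes with a spliced GC content above 60%, the median log2 ratio was 0.05 from 0 to 1 h, -0.16 from 1 to 2 h and 0.22 from 2 to 4 h. In the 31 genes the medians of these CPM ratios were 0.67, -0.18 and 0.53, with the same signs. The size was thus similar from 1 to 2 h and larger in the 31 genes in the other intervals. Among the 3728 other genes with 45% or less the medians were -0.04, 0.03 and -0.19. From 0 to 4 h these groups had medians of 0.17 and -0.19, against 0.99 for the 31 genes. Against the mean at 0 h, the GC-rich genes had medians of -0.07, -0.02 and 0.07 in the 0 h libraries of replicates 1, 2 and 3. The medians were -0.07, 0.10 and 0.11 in the 1 h libraries, and -0.04, -0.13 and -0.10 in those of 2 h. Replicates thus stood in the same order at 0 h and at 1 h. Among 921 other genes with a median intron under 300 bases, the medians from 0 to 1 h, 1 to 2 h and 2 to 4 h were 0.05, -0.10 and 0.16. Among 892 other genes with an upstream same-strand gene within 5000 bases they were 0.02, -0.08 and 0.04. Among 1093 other genes with a mean of 5 to 10 CPM they were -0.04, -0.12 and -0.13. These classes can share genes. The part of base composition, or of these other features, in the values of the 31 genes was not tested.

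**Figure D4:**
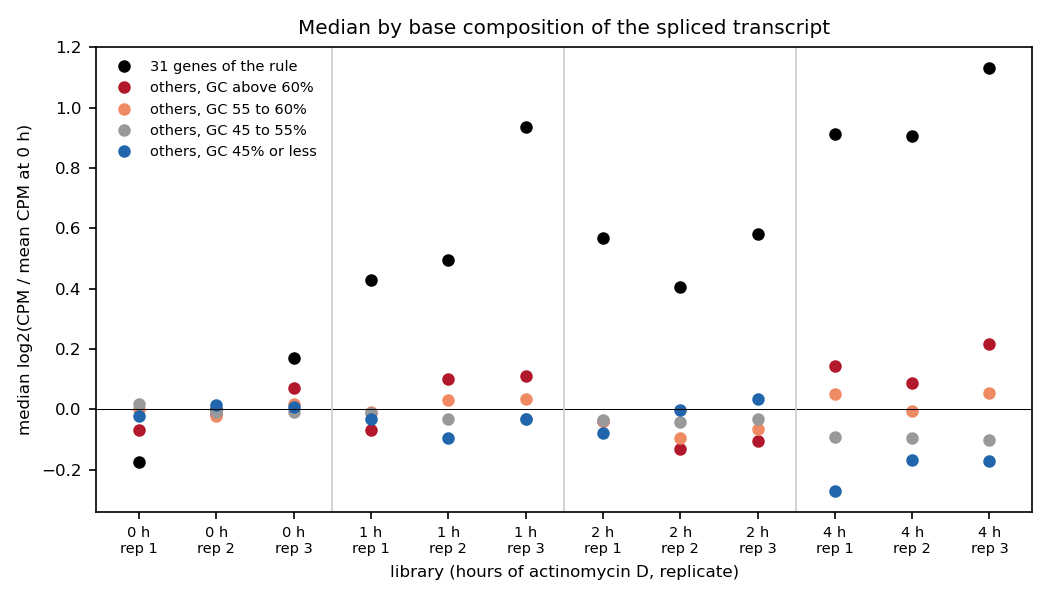
Points give, for each library, the median log2 of CPM over the mean CPM at 0 h for the 31 genes (black) and for other genes in 4 classes of spliced GC content. The black points lie above the classes at 1, 2 and 4 h, and the class above 60% GC lies below 0 at 2 h and above 0 at 4 h.

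The 31 genes often lay against other expressed genes. Among genes with a mean of at least 1 CPM, 1 on the opposite strand overlapped 19 of 31 (61.3%, against 24.2% of the 9733 genes), and the end of an upstream gene on the same strand lay within 5000 bases for 14 of 31 (45.2%, against 9.31%). Such a neighbour was present for 26 of 31 genes. The kit was stranded per the labels, but whether strand was used in counting was not given in the sources used here, so reads of opposite-strand pairs cannot be told apart with certainty. AMH lies 630 bases beyond the end of SF3A2, a splicing factor gene on the same strand. SF3A2 was at 59.9 CPM at 0 h and 58.8 CPM at 4 h, while AMH went from 3.12 to 9.43 CPM. CCDC84 overlaps RPS25 (138 and 154 CPM at 0 h and 4 h), ENOSF1 overlaps TYMS (121 and 151 CPM), PIDD1 overlaps RPLP2 (157 and 199 CPM), and PTOV1-AS2 overlaps PTOV1 (82.3 and 98.4 CPM), each on the opposite strand. LY6G5B overlaps CSNK2B on the same strand (126 and 150 CPM). In 17 of the 19 opposite-strand cases the neighbour had the higher level at 0 h.

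From 0 to 4 h, 21 of 37 neighbours had a log2 ratio above 0, against 43% of the 9788 genes, and their median was 0.16, against -0.07. The neighbours were taken from a mean of 1 CPM and without leaving out names, unlike the 9788 genes, so the sets are not fully alike. The lowest was -1.87 for EIF4ENIF1, which overlaps SFI1. CSAD and PRSS53 overlap the zinc finger genes ZNF740 and ZNF646, which had log2 ratios of -1.04 and -1.34. The part of neighbouring transcripts in the counts of the 31 genes was not tested.

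**Figure D5:**
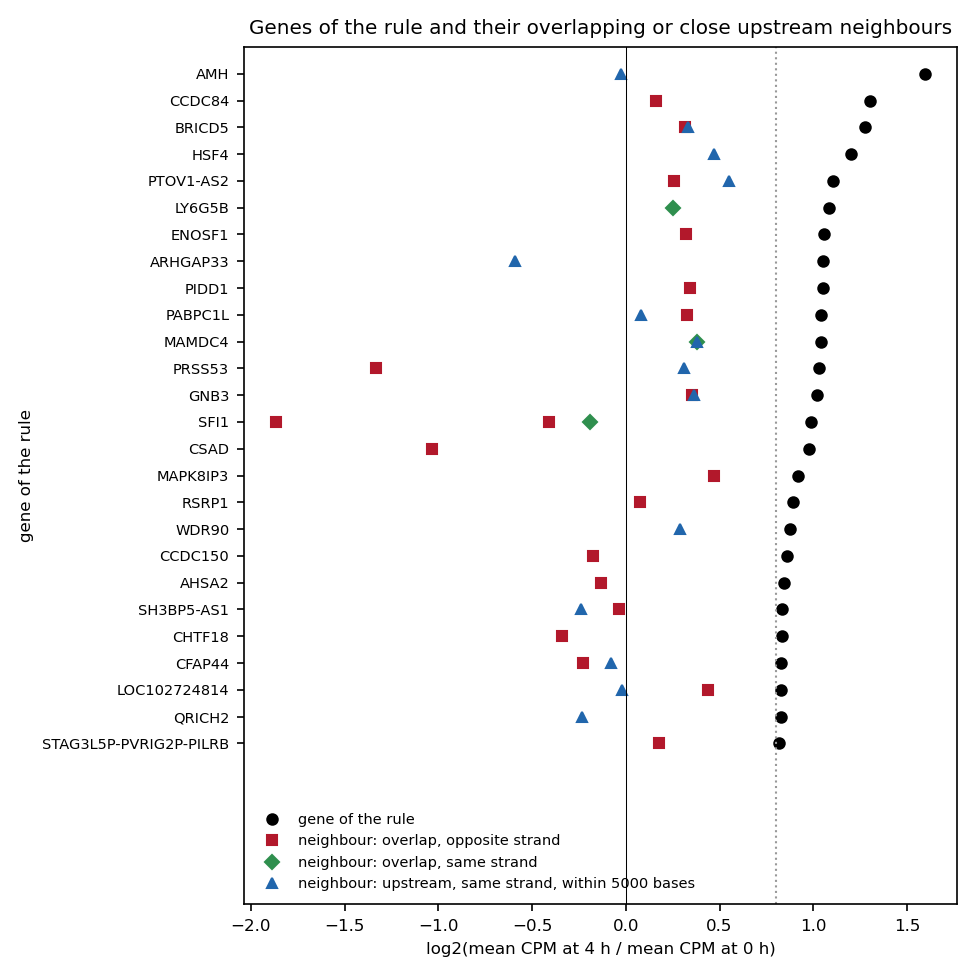
For 26 of the 31 genes, the black point gives the log2 ratio of mean CPM at 4 h to 0 h and the coloured symbols that of overlapping or close upstream neighbours; the dotted line is the threshold of 0.8. Most neighbours lie between 0 and the dotted line or just below 0, and those of SFI1, PRSS53 and CSAD reach below -1.

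The sequence before the transcription start was looked at for the genes in RefSeq's promoter table on GRCh38.p14 to describe what the 31 genes share. It held 23 of the 31. Over the 250 bases before the start, GC content had a median of 69.6% in these 23 and 58.0% in all 35116 promoters of the table. Unlike the 9733 genes above, those promoters were not limited to genes expressed in these cells. Differences from them may therefore go with expression as such, which was not tested. The GC box GGGCGG, on either strand, was present in 13 of 23 (56.5%, against 42.6% of all), and the TATA box letters TATAAA, on either strand, in 0 of 23 (against 10.7% of all), which says only that these letters are not in this window. The windows of 4 of the 23 hold no exon annotated in GENCODE 29, and the first 3 of these in order of the 4 h to 0 h ratio are shown 5′ to 3′ to show how base composition and GC boxes differ within the group. Capitals mark the GC box. They are those of IGFN1 (chr1:201190574-201190823, + strand, 58.8% GC, 0 GC boxes), PABPC1L (chr20:44909810-44910059, + strand, 67.6% GC, 3 GC boxes) and MAMDC4 (chr9:136852096-136852345, + strand, 69.6% GC, 0 GC boxes).
IGFN1: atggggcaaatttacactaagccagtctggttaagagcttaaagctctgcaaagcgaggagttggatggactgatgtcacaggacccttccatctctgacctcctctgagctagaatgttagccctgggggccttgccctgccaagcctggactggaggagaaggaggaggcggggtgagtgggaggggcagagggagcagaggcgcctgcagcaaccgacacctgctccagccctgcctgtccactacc
PABPC1L: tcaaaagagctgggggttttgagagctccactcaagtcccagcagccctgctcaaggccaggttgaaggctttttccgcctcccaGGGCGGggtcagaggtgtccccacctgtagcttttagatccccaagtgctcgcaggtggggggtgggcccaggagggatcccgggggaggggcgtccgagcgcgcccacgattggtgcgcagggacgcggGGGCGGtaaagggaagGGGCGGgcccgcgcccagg
MAMDC4: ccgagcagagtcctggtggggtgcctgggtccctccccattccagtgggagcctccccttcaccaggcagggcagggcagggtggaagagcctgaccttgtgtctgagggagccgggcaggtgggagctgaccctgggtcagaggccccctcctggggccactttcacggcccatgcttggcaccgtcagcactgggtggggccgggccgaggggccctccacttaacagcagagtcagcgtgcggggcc
A GC-rich window without a GC box, as in MAMDC4, and a window with 3 of them, as in PABPC1L, thus both occurred among genes with 4 h to 0 h ratios of 2.06-fold.

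Transcripts that keep an intron and stay in the nucleus are described for a set of genes that includes the kinases CLK1 and CLK4 and the splicing-linked genes NKTR, PNISR and RBM5. Of the 24 genes listed for this property, 0 were among the 31, and GABBR1, just outside the threshold, is 1 of the 24. The rule took only 31 of the 9788 genes, so a count of 0 among 24 says little. Between 1 h and 2 h, edgeR called 0 of 23 tested in either direction, against 1.46% higher and 5.72% lower of all genes tested. The list median was -0.05, and 3 genes had an unadjusted p under 0.05. With the replicate block 4 of 23 were lower, near the 14.3% of all genes. The lowest p-values were those of CLK3 (log2 change -0.28, adjusted p = 0.0706), SRSF5 (-0.27, adjusted p = 0.127) and RBM5 (-0.31, adjusted p = 0.211).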

How the data were processed

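The deposited table holds raw read counts per gene symbol for 12 libraries, used as the authors deposited them. Libraries were poly(A) selected with a stranded kit, per the labels' protocols, and FastQC, STAR and build hg19 are named in the submitters' processing notes. The counting program, its strand setting and the annotation are not given in the sources used here. CPM were computed from column totals of 9381855 to 10929000 counts. Times were compared with edgeR 4.0.16 in R 4.3.3 (TMM, glmQLFit and glmQLFTest over all 12 libraries, Benjamini-Hochberg over 12775 genes, threshold 0.05), with DESeq2 1.42.0 as an alternative. The code was tested on simulated data.

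The members and lists were chosen with earlier results of these data known, and the rule used 4 h against 0 h, so tests were made only for 2 h against 1 h. Named genes were the 12 members with the highest 4 h to 0 h ratio, members past the threshold, the 6 most abundant, the neighbours of the log2 threshold, and the 3 listed genes of lowest p per list; other members were named with these by role. Replicate numbers in the labels paired the libraries: deviations from the time means correlated at 0.263 to 0.649 between libraries of 1 number and at -0.501 to 0.160 between different numbers and times. Alternatives were other scalings, filters, thresholds, the replicate block and left-out libraries.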

Additional observations from a re-analysis of the deposited data

How the results depend on the processing

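The 31 genes had 0 called lower and 0 called higher between 1 h and 2 h, and this held under every alternative except ribosomal protein scaling (1 lower) and the replicate block (3 lower), and their count called was 0 in each direction without any library or replicate in turn. The block, which follows the pairing of the replicate numbers, changed no other call of the 31 genes. Their median log2 change lay between -0.21 and 0.03 when libraries were left out. Over all genes the 731 called lower became 1470 with ribosomal protein scaling, 1827 with the block and 468 with only the 6 libraries of 1 h and 2 h, and 67 to 719 with libraries left out, the lowest without replicate 2. The 187 called higher became 35 with library totals, 2 with ribosomal protein scaling, 61 with no filter on low counts, 1664 with the block and 9 with only the 6 libraries, and 0 to 166 with libraries left out, the lowest without replicate 2. The rule found 66 genes with TMM-scaled CPM, 14 with ribosomal protein scaling, 62 at a minimum of 2 CPM, 16 at 10 CPM, 15 at a log2 threshold of 1, and 28 to 47 with libraries left out, the highest without replicate 3 of 0 h. The median 4 h to 0 h ratio of the 31 genes was 1.13 with TMM and 0.76 with ribosomal protein scaling. The log2 change of IGFN1 from 1 h to 2 h, 0.04, turned to -0.023 with library totals, -0.11 with ribosomal protein scaling and -0.020 with the block, and lay between -0.57 and 0.39 with libraries left out, with -0.18 without replicate 2 and -0.05 without replicate 3 of 1 h. That of MAMDC4 lay between -0.67 and 0.018, the latter without replicate 3 of 1 h. The cause of these changes was not tested. With 23 reads behind the lowest value at 0 h, counting error limits the single genes.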
